A study of Mus musculus with 12 samples.

Results

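The cytosolic ribosomal proteins were followed across 12 expression arrays of lung metastasis explants. They are the genes whose symbol starts with Rpl or Rps and a digit, or is Rplp0, Rplp1, Rplp2 or Rpsa, with the S6 kinase genes, Rps19bp1 and symbols of annotated pseudogenes left out. The rule found 67 genes among the 19505 genes measured, each with 1 probe set, and it used no measured value. Of these, 33 encode standard proteins of the large subunit, 22 encode standard proteins of the small subunit, and 12 are paralogs or retroposed copies. A further 22 standard members, among them Rpl10, Rps3, Rps27, Rps27a and Rplp2, were not analysed here.

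The explants grew from NMuMG-ErbB2 cells, a mouse mammary gland epithelial line that carries the ErbB2 oncogene, after tail vein injection into mice. The injected cells either overexpressed PGC-1alpha, a transcriptional coactivator that switches on genes of mitochondrial biogenesis and is encoded by Ppargc1a, or were cells of the control line. Cultured explants of each line received 100 uM phenformin, a biguanide known to block respiratory complex I, or water for 4 days. This gave 4 groups of 3 arrays: PGC-1alpha explants in phenformin, PGC-1alpha explants in water, control-line explants in phenformin and control-line explants in water. All 4 groups carry ErbB2. The labels do not say what drives the PGC-1alpha transgene, whether a line is 1 clone, or whether the replicates of a group are separate animals or cultures, so p-values measure only the spread among these samples, and part of it may be technical. In a comparison of the lines, PGC-1alpha and other differences between the 2 sets of metastases cannot be told apart.

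A cytosolic ribosome joins a small subunit, which reads the mRNA, to a large subunit, which forms the peptide bond. Its proteins are made in matched amounts, and their mRNAs are among the most abundant of a growing cell. Nearly all of these mRNAs begin with a C followed by a run of pyrimidines, the TOP motif, through which mTOR signalling and the RNA-binding protein Larp1 are known to control their translation. Ribosomal protein promoters are also known to carry sites for ETS family factors such as Gabpa.

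The start regions of 5 members are printed here, 4 of them the members that passed the test between the lines below and the other Rpl28, which had the smallest adjusted p in the phenformin comparison. Rps27l holds both features as searched, Rpl22l1, Rps15a and Rpl28 a pyrimidine run only, and Rps13 neither. Sequences are from RefSeq on GRCm38.p6, 100 bases before to 20 bases after the annotated start, with Rps27l at chr9:66945986-66946105 on the plus strand, Rpl22l1 at chr3:28805408-28805527 on the plus strand, Rps15a at chr7:118116128-118116247 on the minus strand, Rps13 at chr7:116334171-116334290 on the minus strand and Rpl28 at chr7:4792865-4792984 on the plus strand. Capitals mark the ETS family motif CCGGAAG on either strand and any run of at least 7 pyrimidines that opens with C on the transcribed strand and starts between 20 bases before and 30 bases after the start.
Rps27l: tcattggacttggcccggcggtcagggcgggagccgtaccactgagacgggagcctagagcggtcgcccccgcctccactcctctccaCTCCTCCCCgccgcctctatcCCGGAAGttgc
Rpl22l1: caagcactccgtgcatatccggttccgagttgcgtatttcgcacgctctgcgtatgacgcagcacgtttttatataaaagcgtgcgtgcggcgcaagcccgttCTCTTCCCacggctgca
Rps15a: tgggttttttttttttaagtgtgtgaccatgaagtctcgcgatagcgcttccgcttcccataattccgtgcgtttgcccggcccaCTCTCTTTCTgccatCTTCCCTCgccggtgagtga
Rps13: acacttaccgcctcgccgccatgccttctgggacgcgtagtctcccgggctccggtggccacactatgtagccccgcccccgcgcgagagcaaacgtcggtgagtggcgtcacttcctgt
Rpl28: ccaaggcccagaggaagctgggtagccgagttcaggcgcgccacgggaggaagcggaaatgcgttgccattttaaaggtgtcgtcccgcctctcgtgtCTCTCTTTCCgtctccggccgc
In the table used, 54 members had a start region of 250 bases before to 50 bases after the start. A pyrimidine run of this kind was in 36 of those 54 members (66.7%), against 26.5% of all 15691 genes with such a region. CCGGAAG was in 21 members (38.9%), against 13.2% of all genes. The motif AAGGTCA, bound by oestrogen-related receptors, which are known partners of PGC-1alpha, was in 3 members (5.56%), against 4.57% of all genes, and the Nrf1 motif GCATGCGC was in 3 members (5.56%), against 4.1%. The E-box CACGTG was in 7.41% of members, against 9.26% of all genes, the Yy1 core GATGGC in 24.1%, against 15.4%, and the Sp family box GGGCGG in 55.6%, against 51.2%. These motifs were searched on both strands, and a match is a description of the letters only. Members with and without a pyrimidine run had median line differences of 0.13 and 0.14, and members with and without CCGGAAG both had 0.13, so the line difference was of like size with or without either feature.

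Array medians over all probe sets lay between 6.32 and 6.43, on a scale read as log2. Ppargc1a was higher in PGC-1alpha than in control-line explants by 1.03 ± 0.11 (SE, n = 3 each) in water and by 1.13 ± 0.11 in phenformin (limma, adjusted p = 0.000201 and 5.9e-05). Its values ran from 8.06 to 8.37 in PGC-1alpha arrays and from 6.97 to 7.29 in control-line arrays. The 95th percentile of the negative controls ran from 7.717 to 7.995 over the arrays. The control-line values were thus at background, and the difference does not size the overexpression. Of 8 epithelial markers, 5 (Krt8, Krt18, Krt19, Cdh1 and Erbb2) were above the 95th percentile of the negative controls in all 12 arrays, and 3 were above it in none. Of the markers of other cells, none exceeded it in all arrays: 6 of 7 fibroblast and mural, 7 of 7 leukocyte, 6 of 6 endothelial and 6 of 6 lung epithelium markers were above it in no array. The mean of the epithelial markers ran from 9.52 to 9.70 in PGC-1alpha arrays and from 9.57 to 9.73 in control-line arrays. For fibroblast and mural markers it ran from 5.40 to 5.66 in PGC-1alpha and 5.36 to 5.77 in control-line arrays, and for leukocyte markers from 4.92 to 5.31 in PGC-1alpha and 4.70 to 5.28 in control-line arrays. For endothelial markers it ran from 5.097 to 5.40 in PGC-1alpha and 4.88 to 5.20 in control-line arrays, and for lung epithelium markers from 5.21 to 5.48 in PGC-1alpha and 5.225 to 5.57 in control-line arrays. The negative control medians were 5.09 to 5.20 in phenformin arrays, against 4.69 to 5.02 in water arrays. Replicate 2 of the control line in water stood apart on the second principal component (33.3, the next array 9.16). Replicate 3 of the same group stood apart on the third (-28.1, the next array -16).

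Nearly all members were bright. In all 12 arrays 62 of the 67 exceeded the 95th percentile of the negative controls, Rpl10l did so in some arrays, and 4 did so in none. Over the 12 arrays the highest mean signals were 13.46 for Rplp1, a protein of the stalk that recruits translation factors, 13.32 for Rps23, a protein of the decoding centre, 13.28 for Rpl41, the smallest ribosomal protein, 13.01 for Rpl14 and 12.93 for Rpl19. The lowest were 5.48 for Rpl3l, a muscle paralog of Rpl3, 5.98 for Rpl39l, a testis paralog of Rpl39, 6.11 for Rps23rg1, a retroposed gene, 6.52 for Rps4l and 7.91 for Rpl10l, a testis paralog of Rpl10. Probe sets differ in how they bind, so these signals do not rank amounts of mRNA between genes. For the 4 genes above background in no array, a difference between groups is one between background signals.

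The comparison of the lines asked whether explants that overexpress PGC-1alpha differ in their ribosomal protein mRNAs. Most members were slightly higher in PGC-1alpha explants, by a median of 0.13 on the log2 scale (1.09-fold) over both treatments, against 0.004 for all genes. The difference was above 0 for 63 of the 67 members, against 51.1% of all genes. Rps27l, Rpl22l1, Rps15a and Rps13 passed the test as higher and 0 members as lower. That is 5.97% of the members, against 1.85% of all genes that passed as higher. Of all genes 5.12% passed as lower and 6.97% in either direction.

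The shift was visible in the mean over the 67 members. That mean was 11.55, 11.46 and 11.52 in the arrays of PGC-1alpha explants in phenformin and 11.57, 11.56 and 11.49 in those of PGC-1alpha explants in water, against 11.42, 11.41 and 11.37 in control-line explants in phenformin and 11.32, 11.39 and 11.47 in control-line explants in water. In this mean the lines did not overlap within a treatment, though control-line water replicate 3 (11.47) stood above PGC-1alpha phenformin replicate 2 (11.46). In water they did overlap in the median over the members, each centred on its own mean. That median was 0.018 in PGC-1alpha replicate 3, against 0.036 in control-line replicate 3. The mean of the standard large subunit members also overlapped there, with 12.17 against 12.22 in the same arrays. In phenformin the group mean over the 67 members was 11.51 ± 0.05 in PGC-1alpha explants, against 11.40 ± 0.025 in the control line. In water it was 11.54 ± 0.04 in PGC-1alpha explants, against 11.39 ± 0.08 in the control line (SD, n = 3 each). The pooled SD within groups was 0.05. In bulk RNA, fewer cells of a type and less RNA per cell cannot be told apart.

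**Figure D1:**
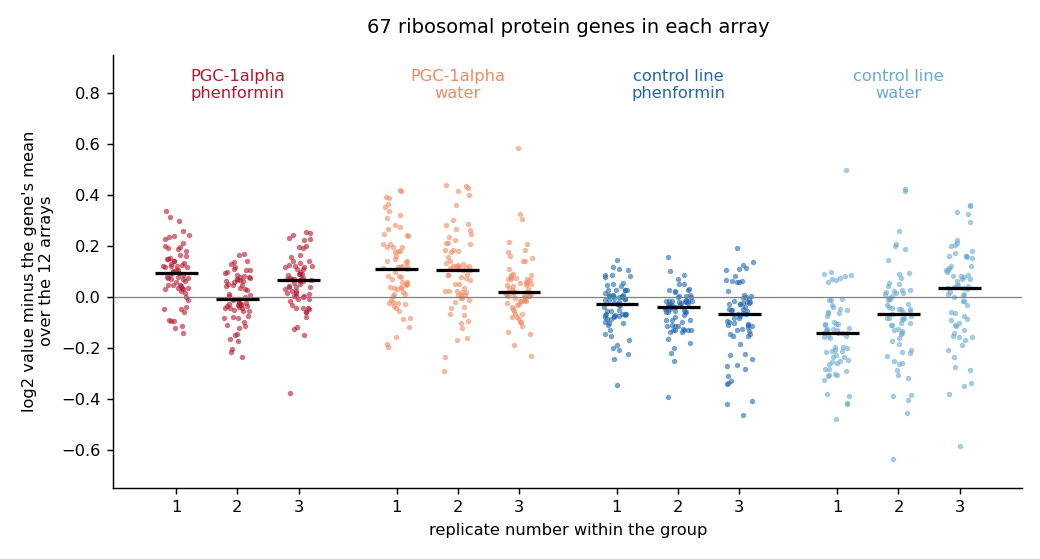
Log2 value of each of the 67 ribosomal protein genes minus that gene's mean over the 12 arrays (y axis) for each array by group and replicate number (x axis); points are genes and black bars are medians over the genes. The PGC-1alpha arrays lie on average above the control-line arrays, and replicate 3 of the control line in water is the highest control-line array.

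Within each treatment no member passed the test. In simulated data the test in water called 0% of genes changed by 0.25 and 5.5% of those changed by 0.5. A lack of calls therefore does not show a lack of change. The changed genes of the simulation were drawn from all genes, whose median SE in water was 0.142, against 0.11 for the members. The rates for the members alone may thus differ. In phenformin the median was 0.10, against -0.006 for all genes, and 61 members were above 0, against 49.0% of genes. Here 0 members were called, against 0.856% of all genes higher and 3.16% lower (4.01% in all). An unadjusted p under 0.05 was found for 2 of 67 members, Rps13 and Rps15a, against 3145 of 19505 genes. All 3 PGC-1alpha arrays lay above all 3 control-line arrays for 28 members (11.1% of all genes) and below for 0 members (16.4% of all genes). In water the median was 0.13, against 0.003 for all genes, 64 members were above 0, against 50.7% of genes, and 0 members were called, against 0.636% of genes higher and 1.37% lower (2.0% in all). The arrays did not overlap in water for 18 members above (6.53% of all genes) and 0 below (7.61%). In water 9 of 67 members had an unadjusted p under 0.05, all of them higher, against 1008 of 19505 genes higher and 1296 lower. The count in water became 3 (Rps27l, Rpl22l1 and Rpl27) without control-line water replicate 3. The 644 other genes with a mean signal above 11 had medians of -0.07 in phenformin and 0.01 in water, below the members' medians in both treatments.

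Rps27l had the smallest adjusted p. It encodes a close relative of the small subunit protein Rps27 and is known as a p53 target in human cells. Its log2 values were 10.17, 10.20 and 10.20 in PGC-1alpha explants in phenformin and 10.41, 10.53 and 10.25 in water, against 10.03, 9.88 and 9.79 in control-line explants in phenformin and 9.68, 9.78 and 10.26 in water. The lines separated in phenformin, and in water only control-line replicate 3 reached the PGC-1alpha arrays. The difference over both treatments was 0.39 ± 0.10 (SE), or 1.31-fold, with a 95% interval of 0.17 to 0.61 (limma, adjusted p = 0.0306). The difference was 0.29 ± 0.14 in phenformin and 0.49 ± 0.14 in water (adjusted p = 0.341 and 0.12).

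Rpl22l1, the paralog of the large subunit protein Rpl22, had the largest difference. Its values were 9.99, 9.69 and 9.63 in PGC-1alpha explants in phenformin and 10.00, 10.06 and 9.86 in water, against 9.43, 9.60 and 9.23 in control-line explants in phenformin and 9.17, 9.26 and 9.87 in water. Again control-line water replicate 3 stood with the PGC-1alpha arrays. The difference was 0.45 ± 0.12, or 1.36-fold, with an interval of 0.19 to 0.71 (adjusted p = 0.0403). Rpl22, which is known to repress Rpl22l1 in mouse cells, differed by -0.004 ± 0.09 (interval -0.19 to 0.19, adjusted p = 0.991).

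Rps15a, a protein of the small subunit body, had values of 11.23, 11.01 and 11.22 in PGC-1alpha explants in phenformin and 11.30, 11.28 and 11.03 in water, against 10.92, 10.89 and 10.78 in control-line explants in phenformin and 10.64, 10.92 and 11.03 in water. The lines did not overlap within a treatment, and across treatments control-line water replicate 3 stood above PGC-1alpha phenformin replicate 2. Its difference was 0.32 ± 0.09, or 1.25-fold (adjusted p = 0.0482). Rps13, another small subunit protein, had values of 11.06, 11.13 and 11.14 in PGC-1alpha explants in phenformin and 11.21, 11.20 and 11.12 in water, against 10.81, 10.83 and 10.92 in control-line explants in phenformin and 11.01, 10.91 and 10.86 in water. All 6 PGC-1alpha arrays of Rps13 lay above all 6 control-line arrays. Its difference was 0.25 ± 0.07, or 1.19-fold (adjusted p = 0.0363), and it was 0.25 in each treatment.

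**Figure D2:**
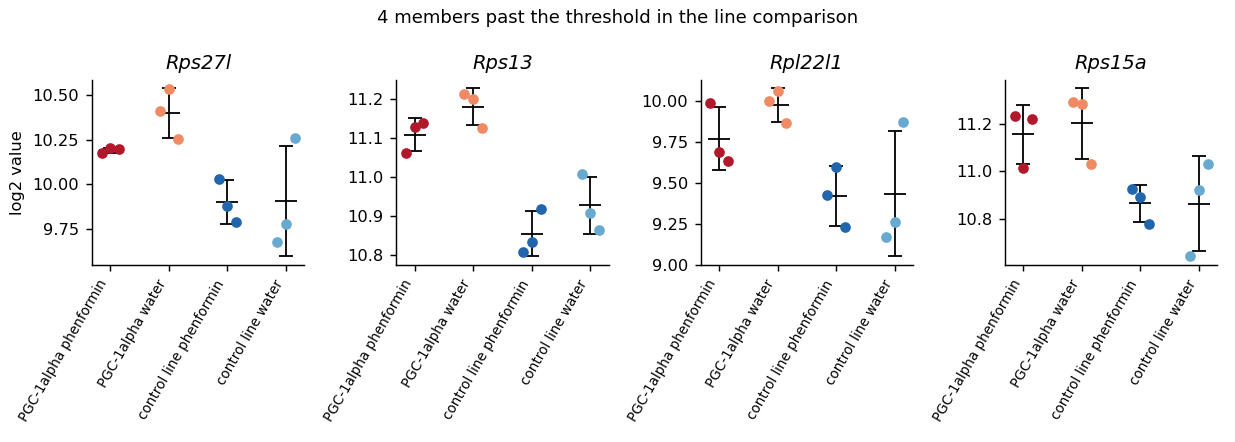
Log2 values (y axis, scaled per gene) of the 4 members past the threshold between the lines, in the 4 groups (x axis); points are arrays, long bars the mean and whiskers the SD of 3 arrays. For Rps13 every PGC-1alpha array is above every control-line array, and for the other 3 a control-line water array reaches the PGC-1alpha range.

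These 4 calls were close to the threshold. Each passed in 7 or 8 of 18 alternative settings, with adjusted p up to 0.12. The count of 4 became 0 without PGC-1alpha phenformin replicate 1 or 3, PGC-1alpha water replicate 1 or 2, control-line phenformin replicate 3 or control-line water replicate 2. It became 1 without PGC-1alpha phenformin replicate 2, control-line phenformin replicate 1 or 2, or control-line water replicate 1. The median over the members varied less, between 0.10 and 0.14 across the settings. Next below the threshold were Rpl27 (0.32 ± 0.10, adjusted p = 0.0755) and Rpl37a (0.22 ± 0.07, adjusted p = 0.0997), both large subunit proteins.

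**Figure D3:**
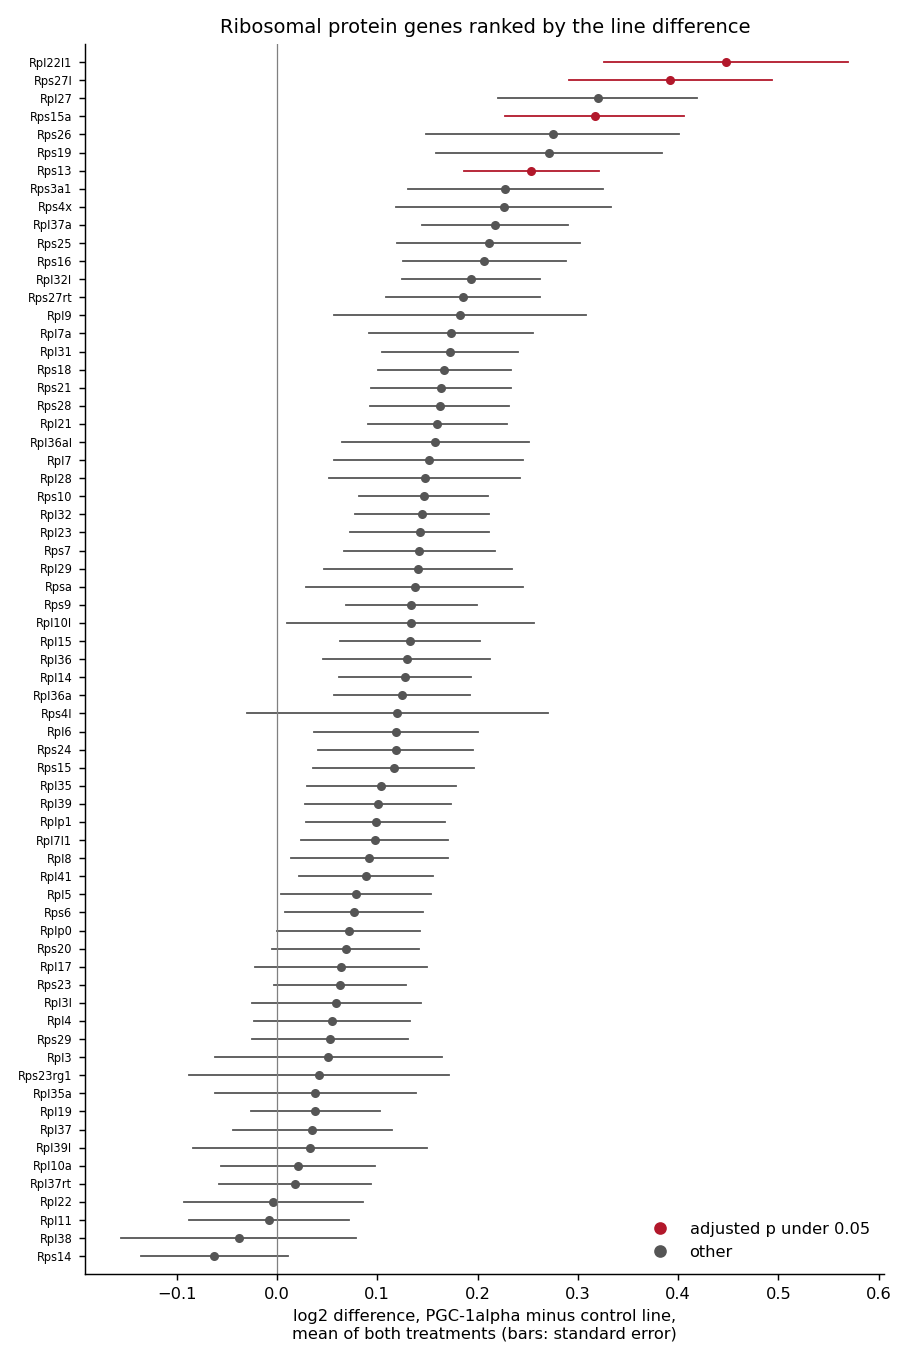
Log2 difference of the 67 members between PGC-1alpha and control-line explants, mean of both treatments (x axis), ranked from largest to smallest (y axis); bars are standard errors and red marks adjusted p under 0.05. The differences run from -0.06 for Rps14 to 0.45 for Rpl22l1, with 63 above 0.

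The shift was spread over both subunits. The 22 standard small subunit members had a median of 0.15, with 21 above 0, and the 33 standard large subunit members a median of 0.10, with 30 above 0. In phenformin the small subunit median was 0.15 and the large subunit median 0.08, and in water they were 0.18 for the small and 0.13 for the large subunit. The 12 paralogs and copies had a median of 0.13 and were all above 0. Of these, Rpl39l, Rpl3l, Rps23rg1 and Rps4l were above background in no array, and Rpl10l in only some arrays. No test of small against large subunit was made.

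Members with a shared place or role are given next. The stalk proteins differed by 0.07 ± 0.07 for Rplp0, its base, and by 0.10 ± 0.07 for Rplp1 (adjusted p = 0.68 and 0.511). Rpl5 and Rpl11, which bind 5S RNA and, when free, the p53 regulator Mdm2, differed by 0.08 ± 0.07 and -0.01 ± 0.08 (adjusted p = 0.662 and 0.977). The 9 measured proteins of the small subunit head, among them Rps18, Rps19 and Rps20, were all above 0, with a median of 0.16. The 6 proteins at the exit of the peptide tunnel, among them Rpl19, Rpl31 and Rpl39, were also all above 0, with a median of 0.08. Of 13 measured genes on a list, not complete, of genes whose human counterparts are mutated in Diamond-Blackfan anaemia, 12 were above 0, with a median of 0.14. The list does not hold Rps15a, whose human counterpart has also been tied to this anaemia. None of the members on these lists passed the test.

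Rps6, the substrate of S6 kinases, differed by 0.08 ± 0.07 (adjusted p = 0.637), and Rpsa, also known as the laminin receptor, by 0.14 ± 0.11 (adjusted p = 0.57). The values below 0 were -0.06 for Rps14, -0.04 for Rpl38, -0.01 for Rpl11 and -0.004 for Rpl22. That for Rpl38 was 0.01 after a second quantile normalization, and those of Rpl11 and Rpl38 lay above 0 without some single arrays. Their intervals included 0, for example -0.22 to 0.09 for Rps14.

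For 8 members all 6 PGC-1alpha arrays lay above all 6 control-line arrays, and for 0 members they lay below. Over all genes this held for 1.11% above and 3.08% below. They were Rpl14, Rpl31, Rpl32, Rpl32l, Rpl37a, Rps9, Rps13 and Rps18, named here after their values were seen. Rpl14 ran from 13.01 to 13.14 in PGC-1alpha arrays, against 12.91 to 12.96 in control-line arrays, a difference of 0.13 ± 0.07 (adjusted p = 0.335). Rpl37a ran from 11.31 to 11.51 in PGC-1alpha arrays, against 11.10 to 11.27 in control-line arrays. Rps18, at the top of the small subunit head, ran from 12.31 to 12.53 in PGC-1alpha arrays, against 12.15 to 12.30 in control-line arrays (0.17 ± 0.07, adjusted p = 0.183).

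The paralogs are set here beside their standard counterparts, of which Rpl22l1 and Rpl22 are given above. Rpl7l1, which resembles Rpl7, differed by 0.10 ± 0.07, and Rpl7 by 0.15 ± 0.09. Rpl36al differed by 0.16 ± 0.09 and its near-identical relative Rpl36a by 0.12 ± 0.07. Rps4l differed by 0.12 ± 0.15 and Rps4x by 0.23 ± 0.11, Rpl39l by 0.03 ± 0.12 and Rpl39 by 0.10 ± 0.07, and Rpl3l by 0.06 ± 0.08 and Rpl3 by 0.05 ± 0.11. Rps4l, Rpl39l and Rpl3l were at background. Rps27rt, a retroposed copy of Rps27, differed by 0.19 ± 0.08, and Rpl10l by 0.13 ± 0.12, while Rps27 and Rpl10 were not analysed here. Only Rpl22l1 and Rps27l passed among these genes, and no difference within a pair was tested. Copies such as Rps27rt, Rpl32l and Rpl37rt are close to their parent mRNAs in sequence, so their probe sets may also read the parents' transcripts.

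The phenformin comparison asked whether 4 days of the drug changed ribosomal protein mRNAs. The members lay on both sides of 0: the median over both lines was 0.001, against -0.022 for all genes, with 34 of 67 members above 0, against 44.7% of genes. Over both lines 0 members were called, against 4.58% of all genes (3.35% higher, 1.24% lower). At an unadjusted p under 0.05 there were 5 members higher and 5 lower, against 2230 of 19505 genes higher and 1814 lower. With the negative control median as a covariate the members' median was -0.08, and after a second quantile normalization it was -0.06. The direction of the members' median thus depends on the processing. That covariate was higher in every phenformin array than in every water array, so it overlaps with the treatment.

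In PGC-1alpha explants the median difference was -0.02, with 31 members above 0 (45.9% of all genes) and 0 called, against 0.133% of all genes higher and 0.0615% lower (0.195% in all). The arrays did not overlap for 8 members above and 6 below, against 8.93% and 10.7% of all genes. In control-line explants the median was 0.03, with 38 members above 0 (49.0% of all genes) and 0 called, against 0.918% of all genes higher and 0.282% lower (1.2% in all). Here the arrays did not overlap for 10 members above and 1 below, against 11.5% and 7.86%. The control-line median was -0.06 after a second quantile normalization and -0.07 with the negative control covariate. The share of members above 0 was thus near that of all genes in both lines. The 644 other genes with a mean signal above 11 had higher medians than the members. These were 0.02 in PGC-1alpha explants, 0.09 in control-line explants and 0.05 over both lines. Whether the members differ from these bright genes in their phenformin differences was not tested. For 0 members did all 6 phenformin arrays lie above or below all 6 water arrays, against 1.78% and 0.61% of all genes. Of the epithelial markers, Krt19 was higher with phenformin by 0.63 ± 0.10 (adjusted p = 0.00493), and its part in the members' values was not tested.

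Rpl28, a large subunit protein, had the largest positive difference. Its values were 13.14, 13.04 and 13.13 in PGC-1alpha explants in phenformin, against 12.78, 12.66 and 13.08 in water, and 13.04, 13.06 and 13.00 in control-line explants in phenformin, against 12.89, 12.44 and 12.52 in water. The arrays separated in the control line and overlapped in PGC-1alpha explants. The difference over both lines was 0.34 ± 0.10, with a 95% interval of 0.13 to 0.54 (limma, adjusted p = 0.0598). Rpl29 was next, with 0.27 ± 0.09, and Rpl10a, which takes part in moving the leaving tRNA, with 0.21 ± 0.08 (adjusted p = 0.119 and 0.138).

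Rpl9, a large subunit protein, had the largest negative difference. Its values were 12.05, 11.99 and 12.12 in PGC-1alpha explants in phenformin, against 12.58, 12.59 and 12.19 in water, and 11.81, 12.03 and 11.89 in control-line explants in phenformin, against 11.74, 12.42 and 12.52 in water. In PGC-1alpha explants all phenformin arrays were lower, and in the control line water replicate 1 was the lowest of all. The difference was -0.36 ± 0.13, with an interval of -0.63 to -0.09 (adjusted p = 0.118). Rps19, the gene mutated most often in human Diamond-Blackfan anaemia, had values of 11.04, 11.10 and 10.92 in PGC-1alpha explants in phenformin, against 11.45, 11.48 and 11.06 in water, and 10.79, 10.84 and 10.57 in control-line explants in phenformin, against 10.75, 11.09 and 11.37 in water. Groups overlapped in both lines, and the difference was -0.32 ± 0.11 (adjusted p = 0.119).

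Rps15 differed by -0.23 ± 0.08 and Rpl3, a protein next to the peptidyl transferase centre, by -0.30 ± 0.11 (adjusted p = 0.121 and 0.153). Rpl39l differed by -0.30 ± 0.12, between background signals. Without control-line water replicate 1, 5 members passed over both lines, against 1191 of the 19505 genes. They were Rpl28 and Rpl29 as higher, and Rpl9, Rpl3 and Rps19 as lower. Without PGC-1alpha water replicate 3, Rpl28 alone passed. Rplp0, Rplp1, Rpl5, Rpl11 and Rps6 differed by -0.09 ± 0.07, -0.02 ± 0.07, -0.02 ± 0.07, -0.10 ± 0.08 and 0.09 ± 0.07, each within an interval that included 0, and Rpsa by -0.20 ± 0.11.

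The order of the members' phenformin differences was alike in both lines, which share no arrays in this comparison. Across the 67 members Pearson's r was 0.801 and Spearman's rho 0.746, with 26 members higher in both lines, 24 lower in both and 17 of opposite sign. Genes are not independent replicates, and the arrays of a treatment share a higher negative control signal. The 644 other genes above 11 had r = 0.79 and all genes 0.462, so the likeness was that of other bright genes. Leaving out 1 array moved the members' r to between 0.511, without control-line water replicate 3, and 0.863. Rpl28, Rpl29 and Rpl10a were at the upper end in both lines, and Rpl9, Rpl3, Rpl39l and Rps19 at the lower end.

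**Figure D4:**
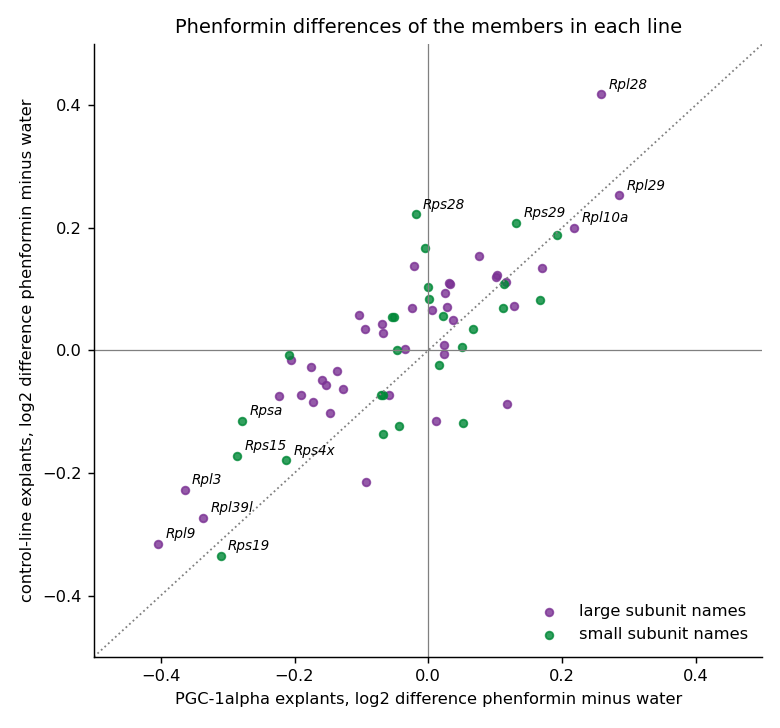
Log2 difference between phenformin and water for each of the 67 members in PGC-1alpha explants (x axis) and in control-line explants (y axis), coloured by subunit name; the dotted line marks equal differences. Most members follow the dotted line, with r = 0.801 across genes, and none passed the test in either line.

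The test of whether the lines differed in their phenformin response found 0 members, and 0 of all genes (0.0%). No member had an unadjusted p under 0.05, against 1018 of 19505 genes. The smallest adjusted p among the members was 0.928, for Rps28. Its values were 11.65, 11.69 and 11.55 in PGC-1alpha explants in phenformin, against 11.61, 11.61 and 11.74 in water, and 11.55, 11.58 and 11.64 in control-line explants in phenformin, against 11.45, 11.30 and 11.35 in water. Its arrays separated by treatment in the control line only, with differences of -0.02 ± 0.10 in PGC-1alpha and 0.22 ± 0.10 in control-line explants, and the difference of the responses was -0.24 ± 0.14, with an interval of -0.54 to 0.06. Rps27l followed with -0.20 ± 0.20 and Rpl22l1 with -0.19 ± 0.24. The largest values were 0.21 ± 0.25 for Rpl10l, 0.17 ± 0.26 for Rps23rg1, which was at background, and 0.13 ± 0.17 for Rpl17. The members' median was -0.06, with 24 above 0 (44.3% of all genes), against -0.032 for all genes, and 0.01 after a second quantile normalization.

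Across the 12 arrays most members varied together. The correlation of a member with the mean over all members, each centred on its own mean, had a median of 0.67, with 46 of 67 above 0.5 and 6 below 0. This mean contains the member itself, and the arrays share their scaling. It was highest for Rps15a (0.981), Rpl22l1 (0.927), Rps27l (0.927), Rps24 (0.915) and Rpl37a (0.912), and lowest for Rps23rg1 (-0.252). Rpl10a, Rps29 and Rpl37rt, with -0.074, -0.145 and -0.12, were among the members that did not follow the mean. Of all other genes, those most like the members' mean over the 12 arrays were Naca (0.973), the nascent chain binding subunit that sits at the ribosome's tunnel exit, Zfp932 (0.959), Cops5 (0.958), the small nucleolar RNA Snord12 (0.952) and Uchl5 (0.948). Naca differed between the lines by 0.22 ± 0.07 (adjusted p = 0.0991). Zfp932 differed by 0.44 ± 0.08 and Cops5 by 0.34 ± 0.09 (adjusted p = 0.0048 and 0.0405), while Snord12 and Uchl5 did not pass. These genes were picked for likeness to a mean that itself differed between the lines. Their line differences are therefore no separate result.

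Other genes that make, regulate or work with the ribosome were set against the 6.97% of all genes called between the lines over both treatments (1.85% higher, 5.12% lower). Among 43 factors of small subunit assembly the median over both treatments was 0.11 and 1 passed: Wdr75, a factor for ribosomal RNA transcription and processing, was higher by 0.33 ± 0.07 (adjusted p = 0.0117). Among 45 factors of large subunit assembly the median was 0.06, with Wdr12 (0.31), Rrs1 (0.30) and Nle1 (0.33) higher and Lsg1 (-0.33) lower, which is 8.89% called. Nle1 was above background in no array. Of 11 nucleolar and snoRNP genes, with a median of 0.14, Nhp2 (9.09% of the list) was higher by 0.28 ± 0.07 (adjusted p = 0.0318). In the translation lists, Eif2b5, which was above background in no array, was lower by 0.41 among 21 initiation genes, and 0 of 20 elongation and TOP mRNA genes passed. Neither did any of 14 RNA polymerase I genes, any of the 8 genes of ribosomal stress, or the 1 measured member of the other ribosomal proteins, such as Fau and Rack1. Over 18 alternative settings Wdr75 and Eif2b5 passed in all, Wdr12, Rrs1 and Nle1 in 12, Nhp2 in 10 and Lsg1 in 7.

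Of 19 regulators, 2 were lower in PGC-1alpha explants and 0 higher, against 5.12% of all genes lower and 1.85% higher. Gabpa, the ETS factor whose motif is marked in the Rps27l sequence above, had values of 10.00, 10.12 and 10.04 in PGC-1alpha explants in phenformin and 10.25, 10.31 and 10.25 in water, against 10.65, 10.63 and 10.72 in control-line explants in phenformin and 10.46, 10.55 and 10.76 in water. The lines did not overlap, and the difference was -0.47 ± 0.07 (adjusted p = 0.00114), while the members' median was above 0. Rptor, the scaffold of the mTOR complex that controls TOP mRNA translation, differed by -0.40 ± 0.09 (adjusted p = 0.00919). Within treatments Gabpa and Rptor passed in phenformin (-0.62 ± 0.10 and -0.54 ± 0.12, adjusted p = 0.00389 and 0.0206) and not in water (-0.32 ± 0.10 and -0.26 ± 0.12, adjusted p = 0.187 and 0.413), and the test of the difference between treatments passed for neither (adjusted p = 0.928 for both). Over both treatments both genes passed in all 18 alternative settings.

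In the phenformin comparison over both lines the small subunit assembly list had a median of -0.12, with 11 of 43 above 0, against 44.7% of all genes. Its median was -0.15 in PGC-1alpha explants, with 7 above 0, and -0.05 in control-line explants, with 16 above 0. Over both lines 3 genes of this list passed as lower, Utp20, Nop58 and Rcl1 (6.98%). Of all genes 1.24% passed as lower and 4.58% in either direction. Utp20, a component of the early processing complex, had values of 8.53, 8.65 and 8.83 in PGC-1alpha explants in phenformin, against 9.25, 9.38 and 9.18 in water, and 8.49, 8.57 and 8.44 in control-line explants in phenformin, against 8.79, 8.80 and 9.04 in water. Its arrays did not overlap by treatment in either line, and the difference was -0.49 ± 0.08 (adjusted p = 0.00537). Nop58, the core of box C/D snoRNPs, differed by -0.73 ± 0.17, and Rcl1 by -0.37 ± 0.09 (adjusted p = 0.0264 and 0.0306). In the large subunit assembly list Las1l, which cuts the internal spacer of the pre-rRNA, was lower by 0.62 (-0.62 ± 0.13, adjusted p = 0.018). That list's median was -0.06 over both lines, with -0.10 in PGC-1alpha explants and 0.01 in control-line explants. Whether the lists differed between the lines in their phenformin response was not tested. Among 8 genes of ribosomal stress, Mdm4 (0.42) and the p53 target Cdkn1a (0.34) were higher and Grwd1 (-0.38) was lower, with adjusted p between 0.0198 and 0.0464, which is 37.5% of a short list, against 4.58% of all genes. In the initiation, elongation, polymerase I, nucleolar, regulator and other ribosomal protein lists 0 genes passed. Over 18 alternative settings Utp20 passed in 17, Las1l in 16, Grwd1 in 12, Rcl1 in 9, Nop58 in 8, Mdm4 in 6 and Cdkn1a in 5. With the negative control median as a covariate 15 of the 19505 genes passed in this comparison, against 894 without it. Whether that background signal plays a part in these differences was not tested.

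**Figure D5:**
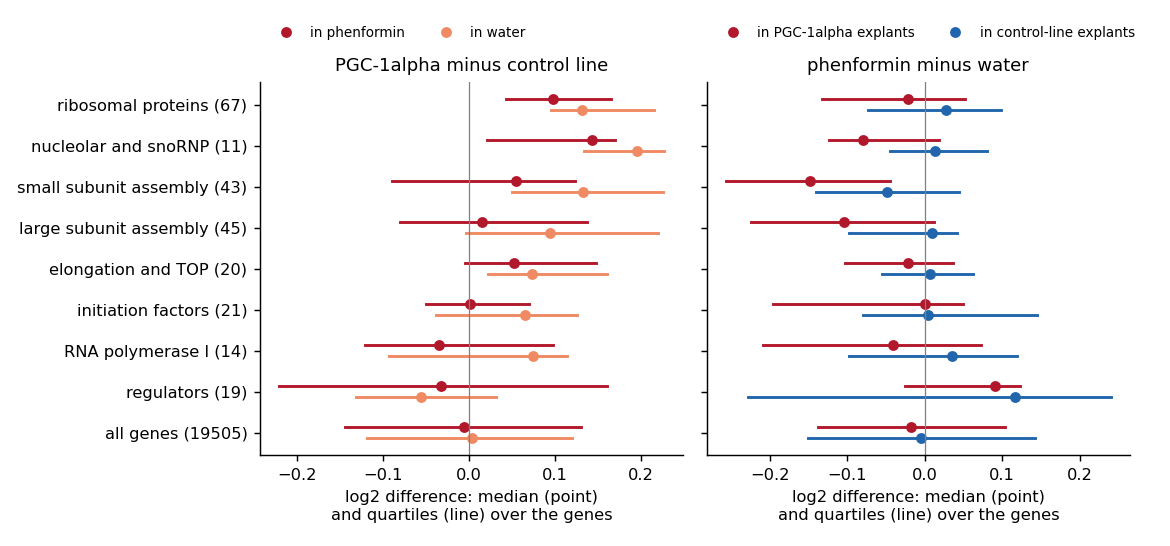
Median (point) and quartiles (line) of the log2 difference over the genes of each list, with the number of genes measured, for PGC-1alpha minus control line (left) and phenformin minus water (right), by treatment or line. The ribosomal proteins and the nucleolar genes lie right of 0 between the lines. With phenformin the small subunit assembly factors lie left of 0 in PGC-1alpha explants (quartiles -0.256 and -0.045). In control-line explants their quartiles, -0.14 and 0.045, lie on both sides of 0.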

How the data were processed

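Per the labels' protocols, 10 ng of total RNA per sample was labelled for the arrays. The authors' deposited values cover 28815 probe sets in 12 columns and were read as log2 from their range, 1.5 to 13.65. Their normalization and log base were not stated in the sources used here, so differences would change in size under another base. Symbols came from GEO's platform annotation. Groups came from sample titles. Another deposited table was left out, since its 12 column names fit no sample.

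The highest-mean probe set was kept for 55 genes with several, which left 19505 genes. A linear model of 4 group means without a replicate block was fitted per gene (lmFit and eBayes of limma 3.58.1, R 4.3.3), with two-sided Benjamini-Hochberg adjusted p over all genes and a threshold of 0.05. Intervals are at 95%. The fit was tested on simulated data with 200 of 19505 genes changed. Between the lines in water it called 0% of them at a log2 change of 0.25, 5.5% at 0.5 and 97.5% at 1. For phenformin in PGC-1alpha explants it called 0%, 9.5% and 98%. No filter on level was used. The number of arrays limits precision.

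The members, lists and contrasts were chosen with earlier results of these data known. Named were the members past the threshold, the 3 largest and 3 smallest differences per contrast, the 5 highest and 5 lowest mean levels, the stalk, Rpl5, Rpl11, Rpsa and Rps6, paralog pairs, up to 4 called genes per other list and contrast, and the 5 genes and 5 members most like the members' mean. Alternatives were a replicate block, renewed quantile normalization, a level filter, fits of only the groups compared, an intensity trend, the negative control median as covariate, the lowest-mean probe set and each array left out.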

Additional observations from a re-analysis of the deposited data

How the results depend on the processing

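Alternatives kept the direction of the members' median line difference: it ran from 0.103 to 0.143 over both treatments, 0.101 to 0.179 in water and 0.076 to 0.135 in phenformin with 1 array left out, and reached 0.140 in phenformin after renewed quantile normalization. Its 4 calls became 7 after quantile normalization, 7 among genes above the median level and 13 with an intensity trend, and 0 to 4 with 1 array left out. In water the 0 members called became 1 above the median level and 3 with the trend (0 to 3 with 1 array left out), in phenformin 1 with the trend, for phenformin in the control line 1 with the trend, and for phenformin over both lines 3 above the median level and 7 with the trend (0 to 5 with 1 array left out). The phenformin medians with 1 array left out ran from -0.06 to 0.003 in PGC-1alpha explants, -0.032 to 0.075 in the control line and -0.015 to 0.016 over both. With the negative control covariate they were -0.079, -0.074 and -0.08, and after quantile normalization -0.063 in the control line and -0.057 over both. The median of the difference of responses was 0.013 after quantile normalization, -0.006 with the covariate, and -0.088 to -0.009 with 1 array left out.

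Deviations of the arrays from their group means showed no sign that the replicate numbers of the titles pair the samples. Correlations of same-numbered deviations ran from -0.373 to 0.133, and those of different-numbered deviations from -0.28 to 0.407. With 3 arrays per group the deviations of a group sum to 0, so these correlations cannot exclude pairing. With the replicate number as a block, the members called between the lines over both treatments were 0 instead of 4, and all genes called with phenformin were 10 (PGC-1alpha), 100 (control line) and 490 (both), against 38, 234 and 894 without it. The block changed no other count by over 1.5 times.

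Over all genes, those 3 phenformin counts were 187, 637 and 1545 among genes above the median level, 255, 691 and 1621 with the trend and 12, 1 and 15 with the covariate. The PGC-1alpha count was 62 after quantile normalization, and fits of only the groups compared gave 15 in PGC-1alpha explants, 13 in the control line and 140 for the lines in water, where the main count was 391 and the trend gave 625. The trend gave 3 genes for the difference of responses. With 1 array left out the counts of all genes were 247 to 349 for the lines in water, 346 to 995 in phenformin and 974 to 1365 over both, 3 to 77, 21 to 601 and 333 to 1191 for phenformin in PGC-1alpha explants, the control line and both, and 0 to 1 for the difference of responses. The causes of these changes were not tested.

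For single members 20 values changed sign, all with adjusted p of at least 0.742. With the covariate these were Rpl10l (-0.02) and Rpl22l1 (0.03) for the difference of responses and Rps23rg1 (0.042) between the lines in water, and after quantile normalization Rpl38 (0.013 over both treatments, 0.005 in phenformin). With 1 array left out they were Rpl10l (-0.018 to 0.369) and Rps23rg1 (-0.057 to 0.36) for the difference of responses, Rpl11 (-0.055 to 0.03) and Rpl38 (-0.134 to 0.039) between the lines over both treatments, and Rpl35a (-0.083 to 0.096), Rps14 (-0.077 to 0.033) and Rps23rg1 (-0.232 to 0.185) between the lines in water. Of the other values for single genes, 1010 kept their direction and side of the threshold, 140 lost a call and 23 gained one. The 3 arrays per group and the background of Rpl39l, Rpl3l, Rps23rg1 and Rps4l limit what can be seen.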
